A study of Homo sapiens with 8 samples.

Results

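The 43 genes described here encode the DNA replication machinery and the factors that take a cell into S phase. They were chosen by gene symbol from the replicative helicase, origin licensing, helicase activation, the polymerases and primase, the sliding clamp and its loader, Okazaki fragment maturation, nucleotide supply, S phase entry, and chromatin assembly behind the fork. Each gene was represented by the probe set that the platform annotation assigns to that symbol alone. Where several such probe sets existed, the one with the highest mean over the 8 arrays was used. All 43 genes had such a probe set and passed the filter on dim signal, so 43 of the 14180 genes tested are members.

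Expression was measured on Affymetrix arrays in 2 established human esophageal squamous cell carcinoma lines, KYSE30 and KYSE180, whose tumors of origin the labels call well differentiated. Cells of each line were put through 4 rounds of transwell selection. The cells that crossed the membrane gave the D subpopulations, which the labels call more motile, and the cells that stayed above gave the U subpopulations. All were grown for 2 passages after harvest to near confluence before lysis, with no other treatment or genetic change stated. The 4 groups 30U, 30D, 180U and 180D had 2 arrays each. Every D subpopulation shares its parental population with 1 U subpopulation, there were 4 such populations, and the spread within a group is therefore that between separately selected populations of 1 line. With 2 arrays a group, the number of arrays limits the precision.

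As background, cells license replication origins in G1 by loading the MCM hexamer through ORC, CDC6 and CDT1. CDC45 and the GINS complex then turn the hexamer into the active helicase, and polymerases, PCNA and its loader RFC copy the DNA while ribonucleotide reductase and thymidylate synthase feed nucleotides. Many of these genes are transcribed in late G1 under E2F factors, so their RNA is widely used as a gauge of proliferation in carcinoma cells.

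The deposited log2 values had array medians between 5.02 and 5.04. Correlations over the tested genes ran from 0.997 to 0.998 within a group, from 0.992 to 0.995 between U and D of a line and from 0.860 to 0.869 between the lines. The array 180D-1 stood apart in RNA quality probes, with a 3′ minus 5′ difference for ACTB of 1.92 against 1.06 to 1.42 on the other arrays. The simple epithelial keratins KRT8 and KRT18 were bright in both lines, with group means of 11.3 to 12.9 and 12.0 to 13.7. KRT20 of the same list was below the filter value of 4.46, at 2.27 to 2.46. The means of this list, of simple or glandular epithelium, were 6.59 to 6.90. All 9 measured squamous markers passed the filter over the 8 arrays, but in KYSE30 the basal keratins that define squamous epithelium were near or below the filter value of 4.46, at 4.63 to 4.84 for KRT5 and 3.54 to 4.13 for KRT14. In KYSE180 the same probe sets read 12.3 for KRT5 and 13.4 to 13.6 for KRT14. Other squamous markers varied in KYSE30. SFN read 12.6 in 30U and 12.8 in 30D, and PERP 12.4 and 12.3. DSG3 read 7.17 and 7.11, and TRIM29 7.57 and 7.52. PKP1 read 4.90 and 4.61, near the filter value, against 10.3 in 180U and 10.2 in 180D. SOX2 read 9.80 in 30U and 7.86 in 30D, and KRT13 9.21 and 8.17, so both were lower in the group where the replication genes were lower. Their part in the results below was not tested. Of markers of other cell types, 3 of 6 for fibroblasts, 1 of 5 for immune cells and 3 of 5 for endothelium passed the filter. Their list means lay between 4.50 and 4.78, 3.51 and 3.60, and 4.32 and 4.59 in the 4 groups, and LUM, PTPRC and KDR were below the filter value. COL1A1, a fibroblast marker, was above it in every group, at 7.02 in 30U, 6.63 in 30D, 7.25 in 180U and 7.84 in 180D, and PECAM1, an endothelial marker, read 5.70 to 5.74.

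In KYSE30, replication genes were lower in the cells that had crossed the membrane. By limma with Benjamini-Hochberg adjustment over all genes tested, 27 of the 43 members (62.8%) fell in 30D against 30U and 0 rose. Among all genes, 8.12% fell and 8.42% rose. The median change over the members was -0.27 on the log2 scale and the members ranged from -0.49 to 0.10, beside a median of 0.01 over all genes. In bulk samples, fewer cells in S phase and less of each RNA per cell cannot be told apart. Members of every role group fell. All 6 MCM subunits, all 5 members of the clamp and loader group, both Okazaki fragment genes and all 4 nucleotide supply genes passed. So did 4 of 6 polymerase and primase genes. Fewer passed among helicase activation genes (2 of 5), chromatin genes (2 of 4), origin recognition and licensing genes (1 of 5) and S phase entry genes (1 of 6). No test compared the role groups.

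**Figure D1:**
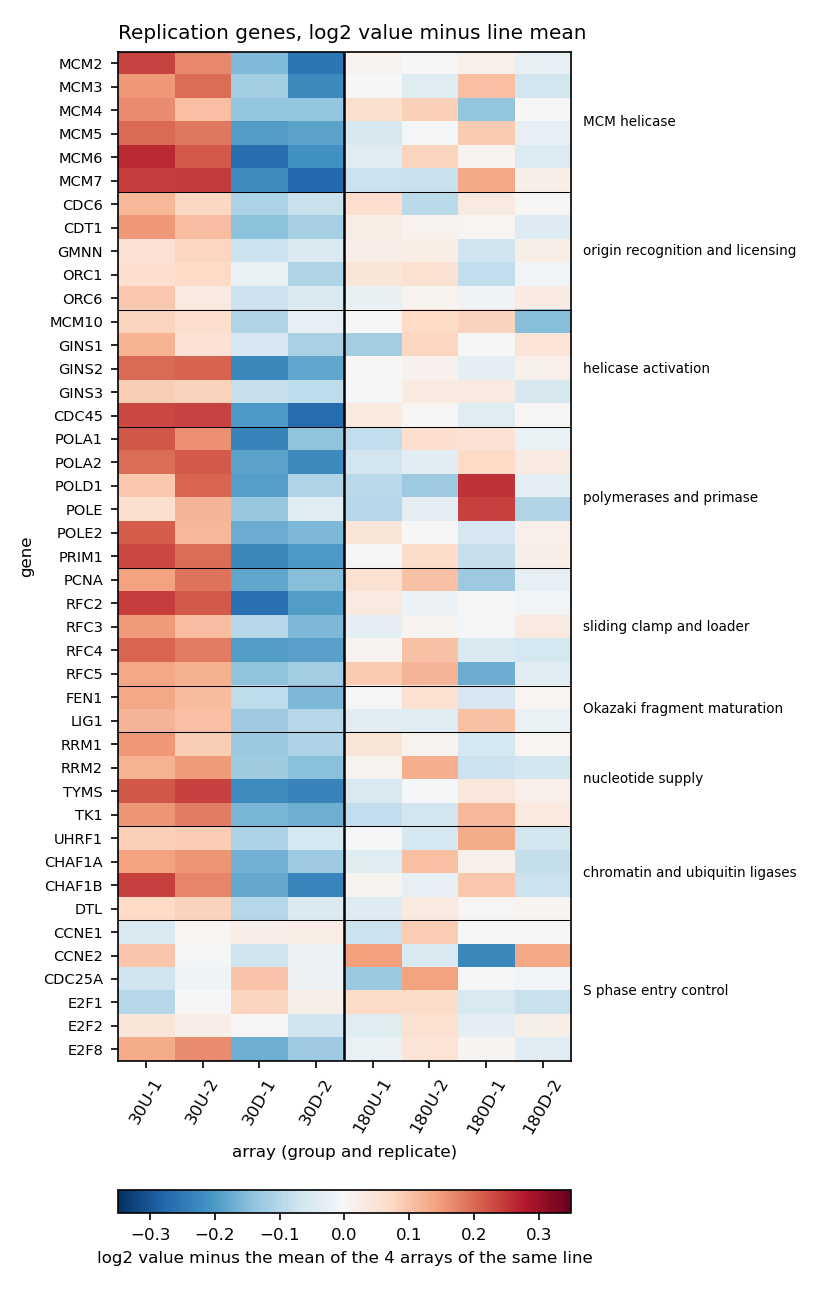
Each of the 43 genes (vertical axis) in each of the 8 arrays (horizontal axis, group and replicate), coloured by its log2 value minus the mean of the 4 arrays of the same line. Both 30D columns lie below both 30U columns in 40 of 43 genes, while the KYSE180 columns show no such split.

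Both 30D arrays lay below both 30U arrays in 40 of 43 members, an arrangement that 30.9% of all genes showed. Within parental population 1, 40 members were lower in the D subpopulation, and within population 2 it was 41. Their median differences were -0.28 and -0.27. Of all genes, 48.8% and 47.8% were lower in the same pairs. The mean over all 43 members was 9.58 and 9.57 on the 30U arrays and 9.31 and 9.32 on the 30D arrays.

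The 5′ flanks of some of these genes are shown here because E2F and NF-Y factors are known to bind the promoters of many cell cycle genes. RefSeq promoter sequences (GRCh38.p14) matched 39 of the 43 members. MCM4, MCM5, E2F8 and CCNE2 were not matched. The motif of E2F factors was searched as the letters TTTCCCGC, TTTCGCGC, TTTGCCGC and TTTGGCGC on both strands, and that of NF-Y as CCAAT on both strands. The 250 bases before the start are printed 5′ to 3′ on the strand of the gene for 3 members that fell and 2 that did not pass, chosen after their values were seen and among windows that overlap no gene span. Capitals mark matches, and overlapping matches run together, as in TTTGGCGCGAAA of MCM6.
MCM6, chr2:135876444-135876693, minus strand: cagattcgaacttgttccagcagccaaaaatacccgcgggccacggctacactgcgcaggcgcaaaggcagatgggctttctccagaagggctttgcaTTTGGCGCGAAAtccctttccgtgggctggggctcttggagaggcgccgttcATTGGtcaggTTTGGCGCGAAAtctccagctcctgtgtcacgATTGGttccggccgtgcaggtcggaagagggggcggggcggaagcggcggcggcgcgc
PCNA, chr20:5126623-5126872, minus strand: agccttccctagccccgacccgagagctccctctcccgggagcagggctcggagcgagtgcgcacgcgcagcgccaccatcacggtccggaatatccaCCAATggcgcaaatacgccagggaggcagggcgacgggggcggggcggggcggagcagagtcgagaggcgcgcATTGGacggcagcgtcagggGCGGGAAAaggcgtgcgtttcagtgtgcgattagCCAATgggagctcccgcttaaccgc
POLA2, chr11:65261712-65261961, plus strand: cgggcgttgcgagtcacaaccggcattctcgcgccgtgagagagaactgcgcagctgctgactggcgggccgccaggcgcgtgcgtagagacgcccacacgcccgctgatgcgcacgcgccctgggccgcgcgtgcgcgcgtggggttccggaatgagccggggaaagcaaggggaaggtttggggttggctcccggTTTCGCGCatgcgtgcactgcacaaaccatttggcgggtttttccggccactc
E2F1, chr20:33686386-33686635, minus strand: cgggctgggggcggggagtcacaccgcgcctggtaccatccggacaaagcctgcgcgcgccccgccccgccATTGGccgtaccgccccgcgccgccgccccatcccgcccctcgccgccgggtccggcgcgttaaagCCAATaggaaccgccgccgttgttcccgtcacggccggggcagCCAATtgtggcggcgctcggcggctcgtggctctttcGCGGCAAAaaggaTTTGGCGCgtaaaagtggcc
CDC25A, chr3:48188418-48188667, minus strand: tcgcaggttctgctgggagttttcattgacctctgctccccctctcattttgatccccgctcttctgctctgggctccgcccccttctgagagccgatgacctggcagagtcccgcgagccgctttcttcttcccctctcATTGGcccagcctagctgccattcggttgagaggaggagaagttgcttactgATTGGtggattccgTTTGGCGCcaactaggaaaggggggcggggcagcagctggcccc

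The E2F letters occurred in 17 of the 39 members' windows (43.6%), against 4.16% of the 11334 promoters of tested genes and 2.79% of all 27305. CCAAT occurred in 22 (56.4%), against 34.6% of the promoters of tested genes and 33% of all, and both occurred in 11 (28.2%), against 1.75% and 1.08%. Among the members that fell in 30D the E2F letters were in 11 of 24 windows (45.8%), and among those that did not pass in 6 of 15 (40%). CCAAT was in 12 of 24 (50%) and in 10 of 15 (66.7%). Of the printed windows, that of MCM6 holds the E2F letters on both strands near 152 and 90 bases before the start. A match describes the letters only, and a part of E2F or NF-Y factors in the changes was not tested. Every printed window holds the E2F letters, against 17 of the 39 members' windows. This includes the windows of E2F1 and CDC25A, whose values are given with the S phase entry genes.

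The MCM subunits form the ring that unwinds DNA at the fork. MCM7 read 10.27 and 10.27 on the 30U arrays and 9.81 and 9.75 on the 30D arrays. MCM6 read 11.20 and 11.15 in 30U and 10.67 and 10.73 in 30D, and MCM2 10.33 and 10.27 against 9.94 and 9.84. In each of the 3 genes both 30D arrays were low and the groups did not overlap. MCM7 fell by 0.49 ± 0.06 on the log2 scale (SE, 2 arrays a group; 0.713 times the 30U level; limma, adjusted p = 0.00253), which was the widest change among the members. MCM6 fell by 0.48 ± 0.06 (adjusted p = 0.00331) and MCM2 by 0.41 ± 0.06 (adjusted p = 0.00494). MCM3, MCM4 and MCM5 fell by 0.35, 0.27 and 0.38.

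Of the genes that turn the loaded hexamer into a moving helicase, CDC45 and GINS2 fell. CDC45, the helicase cofactor, read 8.96 and 8.97 in 30U and 8.53 and 8.47 in 30D. GINS2, a subunit of the GINS complex, read 9.95 and 9.96 against 9.53 and 9.57. The 30D arrays were again the low ones, with no overlap. CDC45 fell by 0.47 ± 0.05 (1.38-fold; limma, adjusted p = 0.00211) and GINS2 by 0.41 ± 0.05 (1.33-fold; adjusted p = 0.00311). The other GINS subunits measured, GINS1 and GINS3, had changes of -0.17 and -0.17 with adjusted p of 0.169 and 0.0746. MCM10, which helps to start unwinding, had -0.14 (95% interval -0.33 to 0.06).

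Of the origin recognition and licensing genes, CDT1 passed. CDT1, which loads the MCM ring, fell by 0.26 ± 0.05 (limma, adjusted p = 0.0148). Its partner CDC6 had a change of -0.19 (adjusted p = 0.0960), and the origin binding subunits ORC1 and ORC6 had -0.13 and -0.13 with adjusted p of 0.170 and 0.156. GMNN, the inhibitor of CDT1, had -0.13 (adjusted p = 0.162). In all 5 genes both 30D arrays lay below both 30U arrays, by amounts that for 4 of them did not pass the test.

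The primase and polymerase alpha subunits, which lay down the primers of each strand, fell. PRIM1, the catalytic primase subunit, read 9.73 and 9.69 in 30U and 9.28 and 9.30 in 30D. POLA2, the accessory subunit of polymerase alpha, read 8.55 and 8.57 against 8.17 and 8.14. Both genes were lower on both 30D arrays. PRIM1 fell by 0.42 ± 0.06 (1.34-fold; limma, adjusted p = 0.00418) and POLA2 by 0.41 ± 0.05 (1.33-fold; adjusted p = 0.00271). POLA1, the catalytic subunit, fell by 0.38 and POLE2, a subunit of the leading strand polymerase, by 0.33. The catalytic subunits of the replicative polymerases delta and epsilon did not pass. Their error is that of all 4 groups together and was widened by the spread in 180D (SD 0.20 for POLD1 and 0.24 for POLE, against 0.08 and 0.04 in 30U). POLD1 had -0.30 with an error of 0.10 (adjusted p = 0.0799), and POLE had -0.17 (95% interval -0.43 to 0.08, adjusted p = 0.325).

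All of the clamp and loader genes fell in 30D. RFC2, a loader subunit, read 9.99 and 9.96 in 30U and 9.49 and 9.55 in 30D. RFC4, another loader subunit, read 11.28 and 11.26 against 10.88 and 10.89. The groups did not overlap for either gene. RFC2 fell by 0.46 ± 0.05 (1.37-fold; limma, adjusted p = 0.00228) and RFC4 by 0.38 ± 0.05 (1.31-fold; adjusted p = 0.00447). PCNA, the sliding clamp, fell by 0.33 ± 0.06 (adjusted p = 0.00976), RFC3 by 0.26 and RFC5 by 0.26. FEN1, the flap nuclease, and LIG1, the ligase, which finish Okazaki fragments, fell by 0.25 and 0.22.

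Nucleotide supply followed the same direction. TYMS, which makes thymidylate, read 12.31 and 12.33 in 30U and 11.87 and 11.85 in 30D. The arrays of a group lay within a few hundredths of each other and the groups were well apart. TYMS fell by 0.46 ± 0.05 (1.37-fold; limma, adjusted p = 0.00185), the smallest adjusted p among the members. TK1, which salvages thymidine, fell by 0.33, and the ribonucleotide reductase subunits RRM1 and RRM2 fell by 0.24 and 0.27.

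Genes that control the entry into S phase mostly did not pass in 30D. No test compared them with the other members. E2F1, an activating E2F factor, read 7.80 and 7.90 in 30U and 7.98 and 7.92 in 30D. CCNE1, the G1/S cyclin, read 7.71 and 7.77 against 7.78 and 7.79. For both genes the 30D arrays were the higher ones, without overlap, but the changes did not pass the test. The change was 0.10 (95% interval -0.03 to 0.23, limma, adjusted p = 0.285) for E2F1 and 0.05 (-0.11 to 0.20, adjusted p = 0.679) for CCNE1. CDC25A, the phosphatase that activates CDK2, overlapped between the groups, with 8.23 and 8.29 against 8.40 and 8.28. E2F2 and CCNE2 had changes of -0.07 and -0.09. E2F8, a repressive E2F factor, was the member of this group that fell, by 0.30 ± 0.05 (adjusted p = 0.0116).

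Among genes that act behind the fork, both large subunits of the histone chaperone CAF-1 fell, CHAF1B by 0.41 ± 0.07 (limma, adjusted p = 0.00875) and CHAF1A by 0.29 ± 0.07 (adjusted p = 0.0258). UHRF1, which brings the maintenance methyltransferase to new DNA, had -0.17 (adjusted p = 0.158), and DTL, the substrate receptor that destroys CDT1 at PCNA, had -0.15 (adjusted p = 0.101).

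The count in KYSE30 depended on each of its 4 arrays. Without 30U-1, 30U-2, 30D-1 or 30D-2, 12, 13, 13 and 12 members fell, and 0 rose in each case. The share of all genes called in either direction went from 16.5% to 6.36%, 5.88%, 6.36% and 6.16% in the same runs. The calls of MCM2, MCM5, MCM6, MCM7, TYMS, CDC45, PRIM1, RFC2 and RFC4 held in every alternative run. With the parental population as a block 18 of the 27 calls were kept, and MCM3, MCM4, RRM1, RRM2, CDT1, RFC3, RFC5, FEN1 and LIG1 were lost at adjusted p of 0.0502 to 0.0847. The probe set rule mattered for some genes as well. With the mean of a gene's probe sets RRM1, GINS2, RFC3 and RFC5 lost their calls (adjusted p = 0.126 for GINS2), and the change of RFC3 was -0.12 instead of -0.26. With the probe set of largest variance MCM4, RRM1, POLA2, RFC3, LIG1 and CHAF1A lost theirs (adjusted p = 0.229 for POLA2).

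Other probe sets of the same genes gave further measurements. The 27 genes had 25 further probe sets past the filter. Of these, 23 changed in the same direction and 12 also passed, with 0 that passed in the opposite direction. Over all probe sets past the filter, 11.6% passed in either direction. The 2 with the opposite sign were a probe set of RFC3 (0.14) and one of RFC5 (0.01). A further probe set of GINS3 passed at -0.29 (limma over all probe sets, adjusted p = 0.0466), whereas the one used above did not.

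In KYSE180 the same genes gave no calls. With limma, 0 of 43 members passed in 180D against 180U in either direction, while 2.55% of all genes rose and 1.21% fell, 3.75% together. At an unadjusted p under 0.05 there were 5 members (11.6%, against 19.2% of all genes), and with an intensity trend in the model 4 passed, 1 higher and 3 lower, where 7.54% of all genes did. The median change was -0.01, beside 0.02 over all genes, and the members ran from -0.21 to 0.22. The mean over the members was 9.82 and 9.85 on the 180U arrays and 9.84 and 9.82 on the 180D arrays. Within population 3 there were 25 members lower in D and 18 higher, and within population 4 there were 28 and 15. Of all genes, 44.1% and 45.5% were lower in these pairs.

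**Figure D2:**
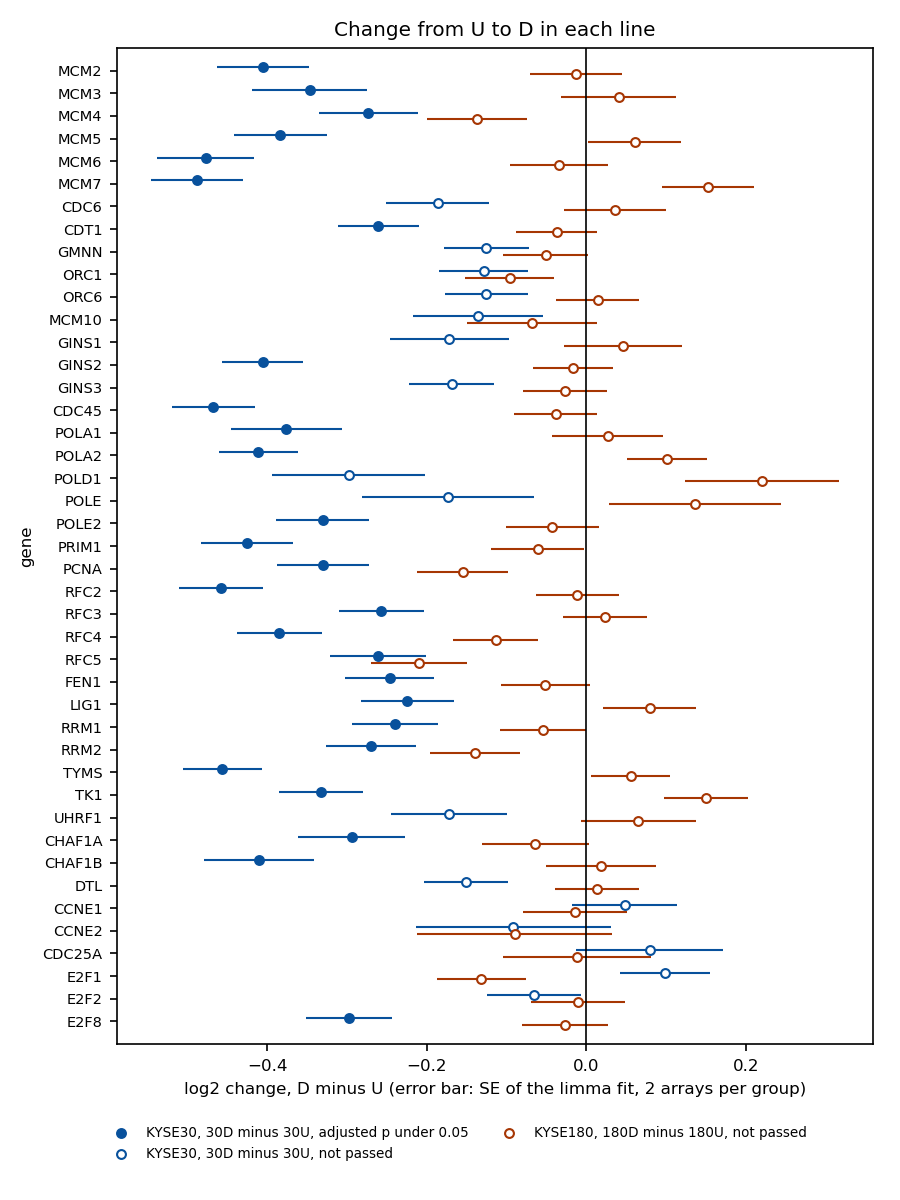
Change from U to D on the log2 scale for each gene (vertical axis) in KYSE30 and in KYSE180, with the SE of the limma fit as error bars and 2 arrays a group. In KYSE30 the points lie between -0.49 and 0.10 and in KYSE180 between -0.21 and 0.22.

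The members with the smallest p lay on both sides of 0. RFC5 read 10.24 and 10.27 in 180U and 9.98 and 10.11 in 180D, a change of -0.21 (95% interval -0.35 to -0.07, limma, adjusted p = 0.118). PCNA had -0.15 (adjusted p = 0.205), and RRM2 had -0.14 (adjusted p = 0.240). These 3 genes were lower on both 180D arrays. TK1 read 10.85 and 10.88 against 11.06 and 10.97, and MCM7 read 11.12 and 11.11 against 11.32 and 11.21. Both were higher on both 180D arrays, with changes of 0.15 (adjusted p = 0.181) and 0.15 (adjusted p = 0.211). Both 180D arrays lay below both 180U arrays in 10 members and above in 6, against 18% and 26.6% of all genes.

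The array 180D-1, which stood apart in the ACTB probes, held the top value of the line for POLD1 (8.63 against 8.25 to 8.34) and for POLE (7.99 against 7.64 to 7.71). It also had the highest KYSE180 values of MCM7 and TK1. The part of RNA quality in these values was not tested. Without that array, 0 members passed and the median change was -0.01. For MCM6, TYMS and CDC45, which fell by 0.46 to 0.48 in KYSE30, the 95% intervals in KYSE180 were -0.18 to 0.11, -0.06 to 0.17 and -0.16 to 0.08. A further probe set of RFC3 passed in KYSE180 at -0.35 (limma over all probe sets, adjusted p = 0.0440), while the probe set used for this gene had 0.02.

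The difference between the 2 changes was then tested itself. With limma and the probe sets used, 13 of the 43 members passed with a change in KYSE180 above that in KYSE30 and 0 below it. Of all genes, 6.94% and 5.21% did. The median difference was 0.24, beside 0.01 over all genes. All 13 were among the 27 that fell in 30D, but both counts use the KYSE30 arrays, so the overlap is no separate result. They were 4 MCM subunits (MCM2, MCM5, MCM6 and MCM7), CDC45 and GINS2, POLA1, POLA2 and PRIM1, RFC2, TYMS and TK1, and CHAF1B. No member of the licensing, Okazaki fragment or S phase entry groups passed.

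For MCM7 the change was -0.49 in KYSE30 and 0.15 in KYSE180, a difference of 0.64 ± 0.08 (95% interval 0.45 to 0.83, limma, adjusted p = 0.00426). TYMS went from -0.46 to 0.06, a difference of 0.51 ± 0.07 (adjusted p = 0.00570). POLA2 had -0.41 and 0.10, a difference of 0.51 ± 0.07 (adjusted p = 0.00576), and TK1 -0.33 and 0.15, a difference of 0.48 ± 0.07 (adjusted p = 0.00842). In each of these 4 genes the D arrays were the low ones in KYSE30 and the high ones in KYSE180. RFC2, CDC45, MCM5 and MCM6 had differences of 0.43 to 0.45. RFC5 had -0.26 in KYSE30 and -0.21 in KYSE180, with a difference of 0.05 (95% interval -0.15 to 0.25). Further RFC5 probe sets had differences of 0.08 and -0.79, and neither passed. A further probe set of RFC3 passed downward at -0.49 (limma over all probe sets, adjusted p = 0.0203), while the one used had 0.28. One of RRM2 passed upward at 0.38 (adjusted p = 0.0371), while the one used had 0.13. Further probe sets of MCM6, MCM7, TYMS, TK1 and RFC2 also passed upward. Over all probe sets past the filter, 8.58% passed in either direction. With the probe sets used, E2F1 had the lowest difference of all members, at -0.23 (adjusted p = 0.111).

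**Figure D3:**
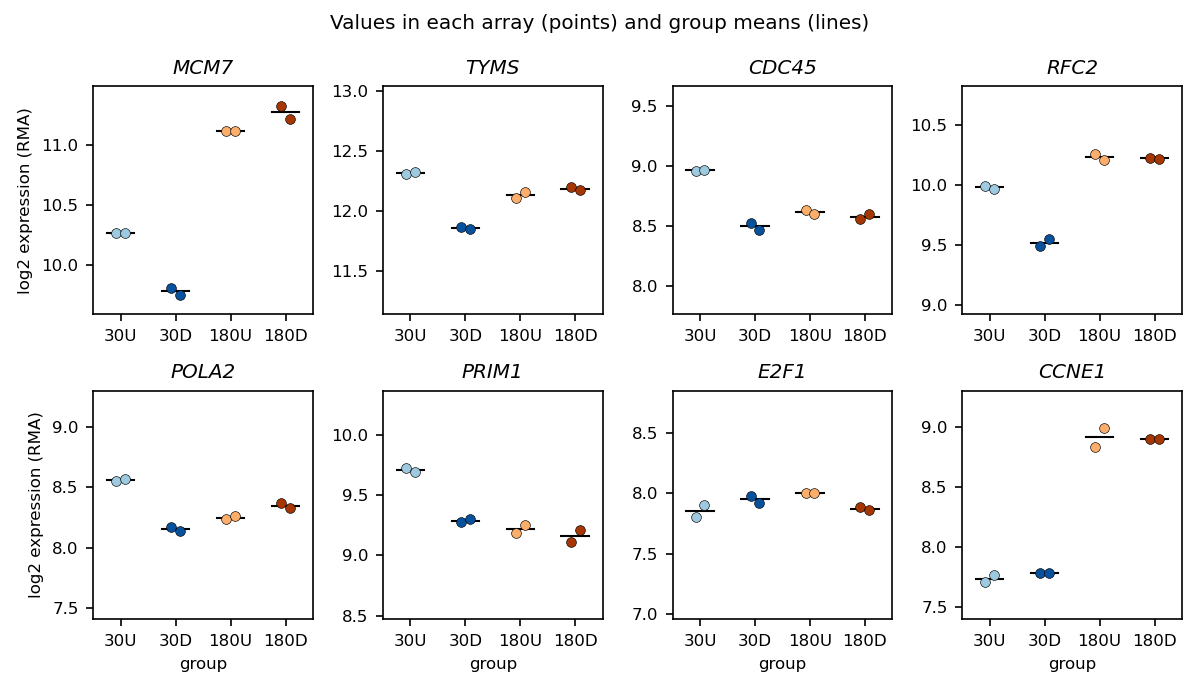
Log2 expression (vertical axis) of MCM7, TYMS, CDC45, RFC2, POLA2, PRIM1, E2F1 and CCNE1 in the 4 groups (horizontal axis), with a point for each of the 2 arrays and a line at the group mean. The 30D points of the first 6 genes sit below the 30U points, as for MCM7 at 9.81 and 9.75 against 10.27 and 10.27, while those of E2F1 and CCNE1 do not.

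With the parental population as a block, 8 members kept a difference between the lines' changes (MCM5, MCM6, MCM7, TYMS, TK1, CDC45, POLA2 and RFC2). MCM2, GINS2, POLA1, PRIM1 and CHAF1B were lost at adjusted p of 0.0519 to 0.0894. The share of all genes called went from 12.2% to 7.13% with this block. Without 30U-1 there were 4, and without 30U-2, 30D-1 or 30D-2 there were 5 in each case. The differences of MCM7 and TK1 passed in every alternative run.

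Over both lines together, 0 of 43 members passed for D against U (limma), beside 0.557% of all genes that rose and 0.317% that fell, 0.874% together. There were 18 members at an unadjusted p under 0.05 (41.9%, against 16.0% of all genes), and with an intensity trend 3 passed, all lower, where 1.38% of all genes did. The median change was -0.15, and 41 of 43 values were below 0, against 44.9% of all genes. RFC5, with changes of -0.26 and -0.21 in the 2 lines, had the smallest adjusted p (0.0727) at -0.24 ± 0.05. A further RFC5 probe set read -0.36 in KYSE30 and -0.28 in KYSE180, and another read 0.01 and -0.78. PCNA followed at -0.24 ± 0.05 (adjusted p = 0.0941). This comparison draws on the same arrays as the changes within each line.

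The lines were compared over both fractions. In all, 26 members were higher in KYSE180 than in KYSE30 and 5 were lower (limma), where 36.1% of all genes were higher and 31% lower. Taken in either direction the members' share of 72.1% was near the 67.1% of all genes. The median difference was 0.41, against 0.05 over all genes. All 4 KYSE180 arrays lay above all 4 KYSE30 arrays in 25 members and below in 4, against 33.8% and 29.4% of all genes.

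**Figure D4:**
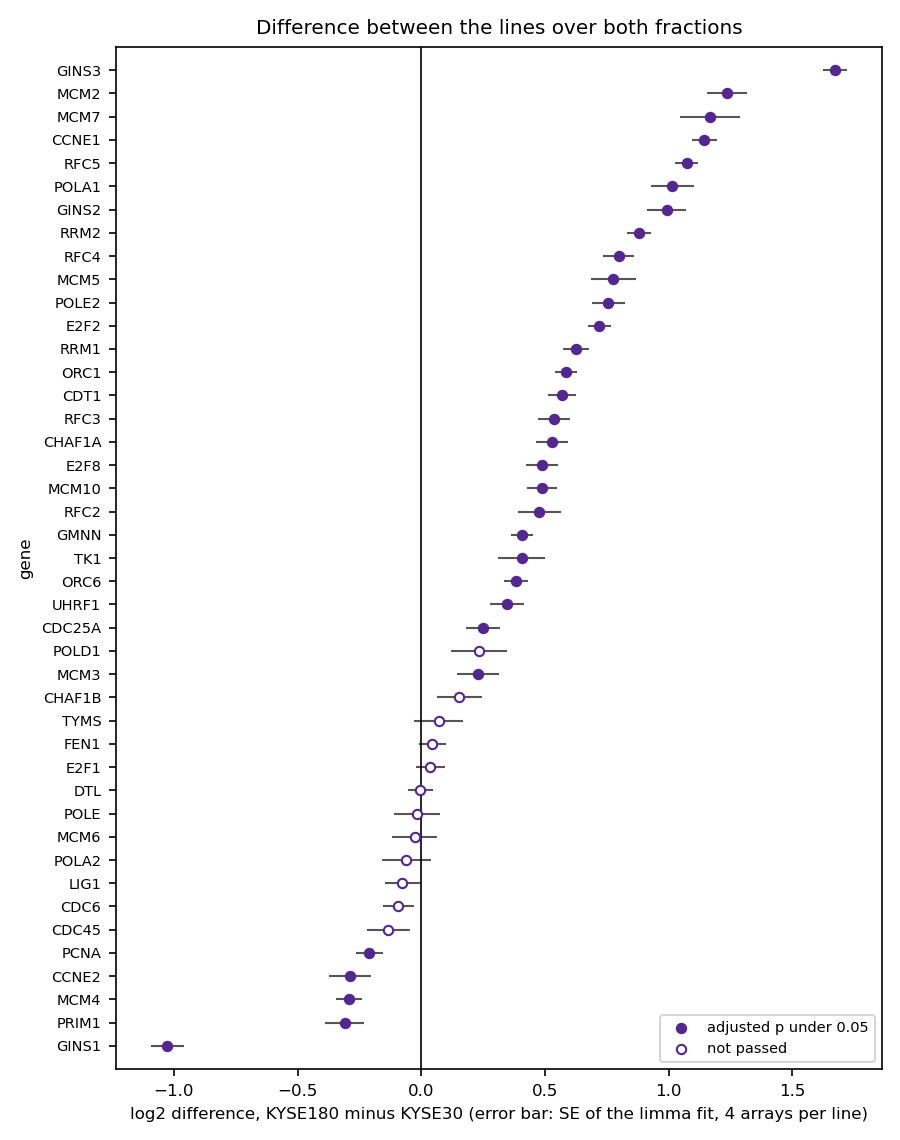
Difference between the lines on the log2 scale, KYSE180 minus KYSE30, for each gene (vertical axis), with the SE of the limma fit as error bars and 4 arrays a line. GINS3 is the highest at 1.67 and GINS1 the lowest at -1.03.

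The highest and the lowest of the differences both belonged to the GINS complex. GINS3 read 7.93 and 7.92 in 30U, 7.76 and 7.75 in 30D, 9.51 and 9.54 in 180U and 9.54 and 9.46 in 180D. GINS1 read 10.45 and 10.38, then 10.27 and 10.22, then 9.18 and 9.38, then 9.31 and 9.35 in the same order. GINS3 was thus higher on every KYSE180 array and GINS1 lower. GINS3 was 3.19-fold higher in KYSE180 (1.67 ± 0.05 on the log2 scale, limma, adjusted p = 1.67e-08) and GINS1 2.04-fold lower (-1.03 ± 0.07, adjusted p = 1.74e-06). GINS2, the subunit that also fell in 30D, was 1.99-fold higher.

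CCNE1 read 8.83 or more on the 4 KYSE180 arrays, with group means of 8.91 and 8.90, and 7.71 to 7.79 on the KYSE30 arrays, so the lines did not overlap. It was 2.21-fold higher (1.14 ± 0.05, limma, adjusted p = 1.81e-07). Its paralog CCNE2 was lower by a smaller amount (-0.29 ± 0.08, adjusted p = 0.0147). A further probe set of CCNE2 had -0.76 (limma over all probe sets, adjusted p = 0.000291). RFC5 was 2.10-fold higher (adjusted p = 1.70e-07), MCM2 2.36-fold, MCM7 2.25-fold, POLA1 2.02-fold, RRM2 1.84-fold and E2F2 1.65-fold. Of 27 further probe sets of the members called between the lines, 25 had the same sign. Of these 23 passed, where 64.6% of all probe sets passed in either direction. A probe set of RFC5 (-0.15) and one of RFC3 (-0.12) had the opposite sign and did not pass. MCM4, PRIM1 and PCNA were lower in KYSE180, by differences of -0.29, -0.31 and -0.21. E2F1 did not pass with the probe set used, at 0.04 (95% interval -0.10 to 0.17), and MCM6 and POLE had differences of -0.03 and -0.02. Further probe sets of 3 members not called here did pass (limma over all probe sets). They were 1 of E2F1 (0.22, adjusted p = 0.0185) and 1 of TYMS (-0.44, adjusted p = 0.0122). For POLA2, 2 passed in opposite directions, at -0.36 (adjusted p = 0.00473) and 0.24 (adjusted p = 0.0132).

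Of the 27 members that fell in 30D, 17 were higher in KYSE180 than in KYSE30 and 3 were lower (MCM4, PCNA and PRIM1). With the probe sets used, the other 7 showed no difference between the lines that passed (MCM6, TYMS, CDC45, POLA2, FEN1, LIG1 and CHAF1B). Of all 43 members 26 were higher (60.5%) and 5 lower (11.6%). Both comparisons use the 30D arrays, so this overlap is no separate result. The group 30D had the lowest of the 4 group means in 33 of 43 members and the highest in 0. Among all genes 30D was the lowest in 27.7%. The groups 30U, 180U and 180D were lowest in 3, 3 and 4 members, against 29.2%, 25.3% and 17.8% of all genes. With the probe sets used, CDC6, E2F1, POLD1, POLE and DTL passed neither in KYSE30 nor between the lines. The line difference of MCM3 (0.23, adjusted p = 0.0427) lost its call without 30D-1, 30D-2, 180D-1 or 180D-2, with no filter, and with quantile or cyclic loess normalization, and the other 30 calls held in every alternative run.

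Other genes of the pathway were taken from lists by function. Of 76 further replication genes 75 were tested. In 30D 23 of them fell (30.7%) and 2 rose (2.67%, limma), with a median of -0.16. Of all genes, 8.12% fell and 8.42% rose. Among replisome, primase and clamp genes 10 of 22 fell, led by TIMELESS, the fork protection factor (-0.40, adjusted p = 0.00448), with PRIM2, RPA3 and CHTF18. Among replication-coupled chromatin genes 4 of 12 fell, with the histone chaperones ASF1B (-0.45, adjusted p = 0.00783) and NASP (-0.28). In the list drawn up for origin licensing and firing 1 of 15 genes fell (6.67%), near the share of all genes. This was MCM8 (-0.33), and the other genes of that list did not pass.

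In the list of E2F, RB and S phase kinase control, 6 of 15 fell and 1 rose. These shares were 40% and 6.67%, against 8.12% and 8.42% of all genes. SKP2, the F-box protein that targets CDKN1B, fell by 0.47 (limma, adjusted p = 0.00295), and the pocket protein RBL2 fell by 0.43 (adjusted p = 0.00328). E2F5, which works with such pocket proteins, rose by 0.54 (adjusted p = 0.0153). Of other nucleotide supply genes, RRM2B, the reductase subunit induced by p53, fell by 0.44 and DUT by 0.34, while SAMHD1, which breaks down deoxynucleotides, rose by 0.53 (adjusted p = 0.0420). In KYSE180, 0 of these 75 genes passed, against 3.75% of all genes. The difference between the changes passed upward for 14 of the 75 (18.7%) and downward for 0, against 6.94% and 5.21% of all genes.

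**Figure D5:**
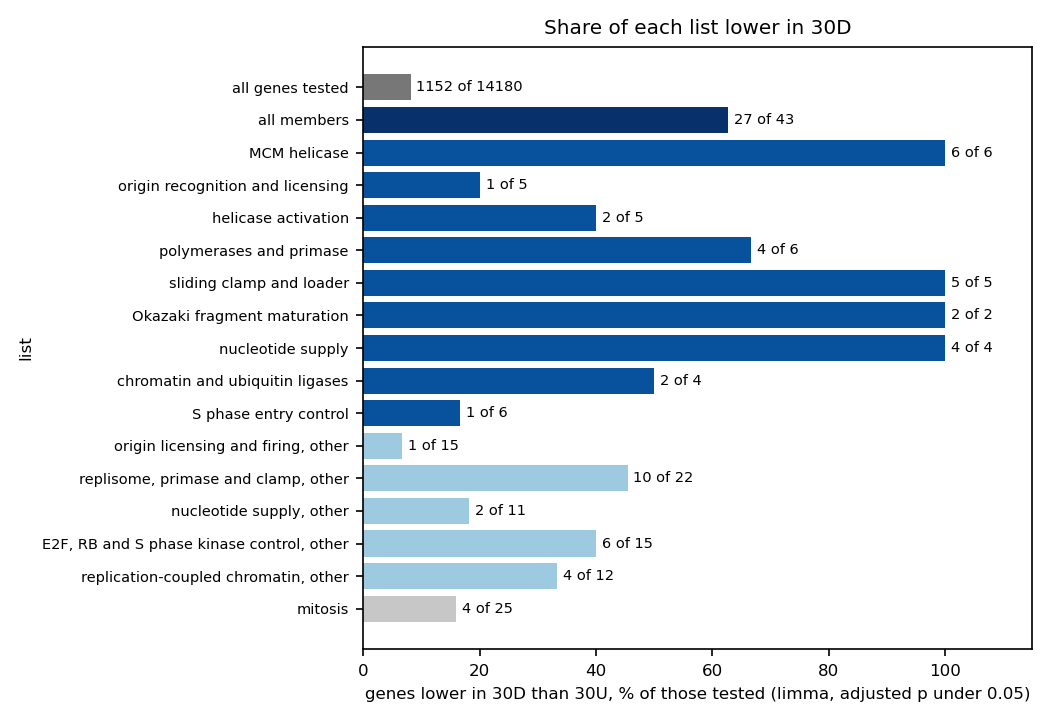
Share of the genes of each list (vertical axis) that fell in 30D against 30U, in percent of those tested (horizontal axis; limma, adjusted p under 0.05). All 6 MCM genes fell, 4 of 25 mitosis genes did, and 8.12% of all genes did.

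Mitosis genes, a list of 25, gave 4 that fell in 30D (CCNB2, FOXM1, MKI67 and BIRC5) and 1 that rose (AURKA, by 0.23), with a median of -0.04. The shares were 16% and 4%, against 8.12% and 8.42% of all genes. Their mean over the list was 10.03 in 30U and 9.96 in 30D, and 10.11 in 180U and 10.21 in 180D. In KYSE180 22 of the 25 values were above 0, against 8003 of the 14180 genes tested. In 180D AURKA (0.28, limma, adjusted p = 0.0366) and KIF20A (0.29, adjusted p = 0.0270) rose. Among G1 cyclins and CDK inhibitors, CDKN1A, the p53 target that inhibits CDK2, fell by 0.95 ± 0.07 in 30D (adjusted p = 0.000299) and CDKN1B by 0.21. CCND1, the D-type cyclin that opens the way to E2F activity, rose by 0.40 ± 0.05 (adjusted p = 0.00332). In 180D, CDK6 was the gene of this list that rose (0.37, adjusted p = 0.0195).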

How the data were processed

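Total RNA of 8 subpopulations was hybridised to 1 array each. The deposited values are log2 expression values that the authors made with RMA, per the submitters' processing notes. RMA subtracts background, equalises arrays and combines the probes of each probe set, so all changes are relative to other genes and a shift in RNA per cell is not visible. Its version is not stated in the sources used here.

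Of 54675 probe sets, 41091 had 1 gene symbol in the platform annotation, 1801 more than 1 and 11721 none listed, with 62 controls besides. A RefSeq table gave current symbols by Entrez ID (41037 matched). Probe sets whose mean fell under the 40th percentile (4.46, log2) were dropped, and the brightest per gene was kept, which gave 14180 of 19775 genes. The 43 members had 81 probe sets with 1 symbol, and 25 members had more than 1. Where a gene has several annotated starts, the first listed promoter was used.

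limma 3.58.1 in R 4.3.3 (lmFit and eBayes, two-sided) was fitted over all genes tested. P-values were adjusted by Benjamini-Hochberg, and an adjusted p under 0.05 passed. The changes within each line and their difference came from a model of 4 group means. The pooled D against U change and the line difference came from an additive model of line and fraction. The fits were tested on simulated data. Intervals are 95% intervals of the fit. Per-array values were given for up to 10 members with the smallest p in each direction, and other members by role group. The members, the lists and the tests were chosen with earlier results of these data known.

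The pairing comes from the labels, which tie each D to 1 U by parental population (in KYSE180 with different numbers in the titles). Deviations of paired arrays from their group means correlated at -0.02 in KYSE30 and 0.02 in KYSE180. Alternatives covered the filter, the probe set rule, the scaling, the model, the block and leaving out each array. MicroRNA arrays of the same RNA were not analysed here.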

Additional observations from a re-analysis of the deposited data

Results flagged for a closer look

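The results singled out here are the 13 members that passed limma's interaction test of line and fraction (adjusted p between 0.00426 and 0.0411, over all genes tested). In each of them the change was more negative in KYSE30. For the helicase the differences were 0.39 for MCM2, 0.44 for MCM5, 0.44 for MCM6, 0.64 for MCM7, 0.43 for CDC45 and 0.39 for GINS2 on the log2 scale. For primer synthesis they were 0.40 for POLA1, 0.51 for POLA2 and 0.36 for PRIM1. RFC2 of the clamp loader had 0.45, TYMS and TK1 of thymidylate supply had 0.51 and 0.48, and CHAF1B of the histone chaperone CAF-1 had 0.43. Changes of the 13 genes in KYSE180 alone ran from -0.06 for PRIM1 to 0.15 for MCM7.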

How the results depend on the processing

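Of 22 alternatives for KYSE30, none raised a member or turned a called member's direction. The count of 27 members that fell ran from 12 to 28 when 1 array was left out and was 18 with the replicate block by parental population and 19 with a block by the number in the title. With the intensity trend 4 members passed in KYSE180 and 3 over both lines, against 0 and 0. The 13 differences between the lines' changes became 20 with the filter at the 60th percentile, 25 with the intensity trend, 8 with the block by parental population and 5 with the block by number, and ran from 4 to 16 when 1 array was left out. Over all genes, the share called for this difference moved as well. It went from 12.2% to 20% with that filter, 19% with the trend, and 7.13% and 6.78% with the 2 blocks. In KYSE30 the share of all genes called went from 16.5% to 12.1% and 11.1% with the same blocks. The direction turned only for members that did not pass. With the probe set of largest variance E2F1 had -0.096 in KYSE30 and 0.055 for the difference, and CDC25A had -0.073 over both lines. CDC25A had -0.011 over both lines with the mean of probe sets, and CCNE1 had -0.013 with centred arrays. With 1 array left out, the difference ran from -0.23 to 0.043 for CDC25A and from -0.14 to 0.020 for CCNE1, and the change over both lines from -0.011 to 0.097 and from -0.0096 to 0.056. The consensus correlation of the population block in the comparison of lines was -0.37, where all 31 calls were kept and 32 members passed. The cause of these shifts was not tested. Depth does not apply to arrays: the members lay well above the filter value, and 2 arrays a group limit the precision.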

Other observations

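Genes beside the replication machinery differed between the lines over both fractions. Of 12 listed G1 cyclins and CDK inhibitors 10 were tested, and 3 were lower and 4 higher in KYSE180. These shares (30% and 40%) were near the 31% and 36.1% of all genes. By limma, the 3 lower ones were the CDK inhibitors CDKN2B (adjusted p = 1.33e-11), CDKN2A (-2.93 ± 0.09 on the log2 scale) and CDKN1A (-2.28 ± 0.16). CDKN2B had a mean of 8.93 in KYSE30 and group means of 2.60 and 2.50 in KYSE180, below the filter value of 4.46. Measured from that value, which stands in for background and is no detection call, it was at least 22.2-fold lower in KYSE180. Of the 4 higher genes of this list, CCND3, a D-type cyclin, had a difference of 0.60 ± 0.06. Of other nucleotide supply genes, DTYMK, which phosphorylates thymidylate, was higher by 1.23 ± 0.05, and CAD, which starts pyrimidine synthesis, was higher by 1.03 ± 0.06. SUPT16H, a subunit of the histone chaperone FACT, was higher by 1.35 ± 0.05, and TFDP1, the dimer partner of E2F factors, by 0.98 ± 0.06. Of the 75 further replication genes tested, 44 were higher and 11 lower in KYSE180 (58.7% and 14.7%), where 36.1% and 31% of all genes were, and the share in either direction, 73.3%, was near the 67.1% of all genes.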
